A study of Mus musculus with 18 samples.

Results

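Cadherins and protocadherins were followed through sorted cells of cultured fetal mouse kidneys. The set was chosen by name: every protein-coding gene called Cdh followed by a number, other than Cdh5, and every gene whose symbol begins with Pcdh. These are 93 of the 78317 genes in the table, namely 22 cadherins, 12 protocadherins that stand alone in the genome and 59 clustered protocadherins (15 alpha, 22 beta and 22 gamma genes). Of the 93 genes, 62 passed edgeR's filter on low counts, as did 16544 genes in all: 22 of the 34 non-clustered members, 18 of the 22 beta genes, all 22 gamma genes and none of the 15 alpha genes.

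All libraries came from wild-type CD1 kidneys taken at embryonic day 14, exposed for 4 hours to AAV2, an adeno-associated virus that delivers genes, and kept for 72 hours in a gel of collagen I and matrigel. The virus carried the red reporter mCherry, driven by the broadly active CAG promoter, ahead of 2 short hairpin RNA cassettes. Mylk-shRNA aimed at 2 regions of the myosin light chain kinase gene, Rock1/2-shRNA aimed at 1 region each of the kinase genes Rock1 and Rock2, and scramble-shRNA held rearranged Rock1 and Rock2 target sequences. Explants of each vector and litter were pooled, digested with trypsin and collagenase, and sorted into the cells with the top 25% of mCherry signal (positive) and those with the bottom 50% (negative), so that the negative fraction is sorted kidney from the same 9 cultures and had met the same virus. With 3 vectors, 2 fractions and 3 litters there were 18 libraries, 3 in each of 6 groups. Library totals ran from 3121624 to 12170830 counts (median 7581392). Libraries of a group differed by more than sampling noise. No targeted gene passed edgeR's quasi-likelihood test between its vector and the scramble. In the positive fraction Mylk had 168, 169 and 187 CPM (counts scaled to a library total of 1e6) in Mylk-shRNA libraries, against 181, 198 and 211 CPM in scramble libraries, a log2 fold change of -0.19 (95% interval -0.49 to 0.11). Under Rock1/2-shRNA the log2 fold change in the positive fraction was -0.09 (-0.38 to 0.21) for Rock1 and -0.17 (-0.50 to 0.15) for Rock2. In the negative fraction Mylk stood at 0.09 (-0.22 to 0.40) under Mylk-shRNA, and Rock1 and Rock2 at -0.19 (-0.47 to 0.10) and -0.08 (-0.40 to 0.23) under Rock1/2-shRNA.

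Classical cadherins are calcium-dependent adhesion proteins that join like cells to like and hold on to actin through catenins bound to their tail. In the developing kidney the choice of cadherin changes as loose mesenchyme turns into nephron epithelium, and E-cadherin and P-cadherin mark epithelium while N-cadherin and cadherin-11 are typical of mesenchyme. Protocadherins lack the catenin-binding tail, and many of the delta group bind the WAVE complex, which builds branched actin. The clustered protocadherins are best known from neurons, where each cell uses a few of many alternative first exons, and in the alpha and gamma clusters every first exon is joined to the same constant exons.

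The promoters of called genes are shown here because 4 of the 9 non-clustered members that passed the test between fractions have an entry shown here from RefSeq's promoter table (build GRCm38.p6): Pcdh9, Cdh24 and Pcdh18, which were higher in the positive fraction, and Cdh6, which was lower. Each is the 250 bases before the start of the gene, on the minus strand, written 5′ to 3′, and capitals mark the GC box GGGCGG or its reverse complement CCGCCC. The windows are chr14:93890680-93890929 for Pcdh9, chr14:54641365-54641614 for Cdh24, chr3:49757317-49757566 for Pcdh18 and chr15:13173676-13173925 for Cdh6.
Pcdh9: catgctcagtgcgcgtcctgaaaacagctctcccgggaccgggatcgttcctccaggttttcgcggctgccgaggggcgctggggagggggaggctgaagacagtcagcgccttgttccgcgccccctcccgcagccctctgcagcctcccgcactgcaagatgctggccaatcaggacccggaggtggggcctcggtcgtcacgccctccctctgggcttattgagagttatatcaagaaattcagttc
Cdh24: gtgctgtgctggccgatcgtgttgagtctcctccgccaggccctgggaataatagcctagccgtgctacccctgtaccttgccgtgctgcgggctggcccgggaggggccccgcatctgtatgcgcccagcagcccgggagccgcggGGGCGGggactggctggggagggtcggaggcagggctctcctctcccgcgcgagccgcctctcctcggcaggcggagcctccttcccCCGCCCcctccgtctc
Pcdh18: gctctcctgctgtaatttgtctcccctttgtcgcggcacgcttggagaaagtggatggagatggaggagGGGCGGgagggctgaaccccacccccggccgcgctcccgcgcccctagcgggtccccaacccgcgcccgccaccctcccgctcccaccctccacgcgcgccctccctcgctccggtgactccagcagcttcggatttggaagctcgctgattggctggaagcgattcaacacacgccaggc
Cdh6: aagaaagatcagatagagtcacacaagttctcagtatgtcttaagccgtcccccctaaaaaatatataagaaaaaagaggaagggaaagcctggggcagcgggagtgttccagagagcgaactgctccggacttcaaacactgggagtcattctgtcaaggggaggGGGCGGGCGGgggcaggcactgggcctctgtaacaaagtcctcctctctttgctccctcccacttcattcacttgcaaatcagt
A GC box occurred at 2 places in the Cdh24 window, 1 in the Pcdh18 window and 2 overlapping places in the Cdh6 window, and at none in that of Pcdh9. RefSeq has 2 promoter entries for Pcdh9, of which 1 is shown and the other is not described here. Over all 32851 promoter windows of this length, 32.7% held 1 on either strand. The E-box CACCTG, or CAGGTG on the other strand, the letters read by repressors of the Snail and Zeb families, was in none of these 4 windows and in 17.2% of all windows.

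Between positive and negative cells, averaged over the 3 vectors, epithelial cadherins were lower, 2 protocadherins and Cdh24 were higher, and the beta cluster was higher as a whole. In edgeR's quasi-likelihood test with Benjamini-Hochberg adjustment over all genes, 3 of 22 non-clustered members rose, 6 fell and 13 did not pass, with a median log2 fold change of -0.10. Across all genes tested 33.6% passed, 17.6% higher and 16% lower, with a median of -0.03. The share of these 22 that passed is thus close to that of all genes. All log2 fold changes below are positive over negative, and an adjusted p is from this test unless another is named. In bulk libraries, fewer cells of a type and less RNA per cell cannot be told apart.

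**Figure D1:**
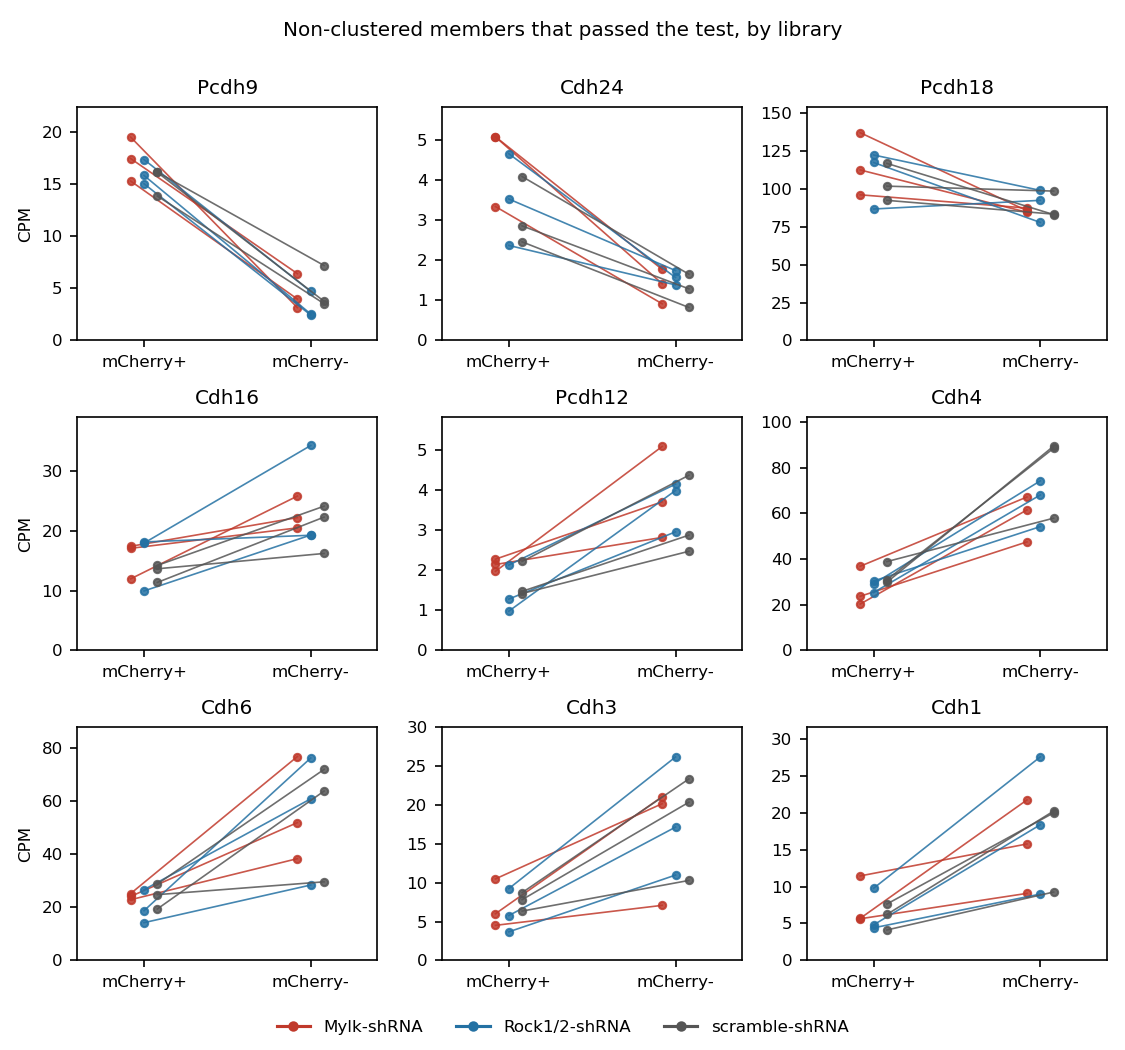
CPM of the 9 non-clustered members that passed the test, with a panel for each gene and a linear axis from 0; a line joins the mCherry-positive and mCherry-negative libraries of 1 culture, coloured by vector. Lines for Pcdh9 and Cdh24 fall in all 9 cultures towards the negative fraction, and those for Cdh16, Pcdh12, Cdh4, Cdh6, Cdh3 and Cdh1 climb in all 9.

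The cadherins of epithelium and of forming nephrons came out lower in positive cells. Cdh1 (ENSMUSG00000000303), or E-cadherin, the main adhesion protein of ureteric and tubular epithelium, had 4.12 to 11.4 CPM in positive libraries (median 5.69), against 8.98 to 27.5 CPM in negative libraries (median 18.4). It was lower in the positive library of all 9 cultures, although the ranges overlap, and fell by 1.38 on the log2 scale (SE 0.25, adjusted p = 0.000334). Cdh3 (ENSMUSG00000061048), or P-cadherin, another epithelial type I cadherin, had 3.67 to 10.5 CPM in positive libraries (median 6.34) and 7.08 to 26.2 CPM in negative libraries (median 20.2). It too was lower in all 9 cultures, with a log2 fold change of -1.38 ± 0.24 (SE, adjusted p = 0.000282). In GENCODE M21, an annotation of an older mouse build, 1 other protein-coding gene lies between Cdh3 and Cdh1. Cdh16 (ENSMUSG00000031881), the kidney-specific Ksp-cadherin of tubules and ureteric bud, had 9.93 to 18.1 CPM in positive libraries (median 14.2) and 16.2 to 34.2 CPM in negative libraries (median 22.2). The difference had the same sign in all 9 cultures but was smaller, at -0.69 ± 0.13 (SE, adjusted p = 0.000506).

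Cdh4 and Cdh6 are type I and type II cadherins of the nephrogenic lineage. Cdh4 (ENSMUSG00000000305), or R-cadherin, had 20.3 to 38.8 CPM in positive libraries (median 29.8), against 47.5 to 89.4 CPM in negative libraries (median 67.1). The ranges did not overlap, and the log2 fold change of -1.26 ± 0.11 (SE, adjusted p = 5.40e-08) had the smallest p of the members that fell. Cdh6 (ENSMUSG00000039385), or K-cadherin, which appears in early nephron epithelium, had 14.2 to 28.7 CPM in positive libraries (median 24.1) and 28.4 to 76.7 CPM in negative libraries (median 60.8). It was lower in all 9 cultures, with a log2 fold change of -1.35 ± 0.21 (SE, adjusted p = 9.98e-05). The lowest negative Cdh6 library lay just under the highest positive one.

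Markers of nephron progenitors, early nephrons and ureteric bud were mostly lower in positive cells, and those of proximal and distal tubule mostly did not pass. All 8 early nephron markers tested fell, and their summed level was 368 to 456 CPM in positive libraries, against 734 to 1302 CPM in negative libraries. Of 8 ureteric bud and collecting duct markers 6 fell and none rose, and they summed to 38.3 to 73.7 CPM in positive and 70.5 to 133 CPM in negative libraries, which overlap. All 7 nephron progenitor markers tested fell, with sums of 451 to 610 CPM in positive and 481 to 1030 CPM in negative libraries, which overlap. Of 6 proximal tubule markers 1 fell and 5 did not pass, of 7 distal markers 3 fell and 4 did not pass, and of 5 podocyte markers 2 rose and 3 fell. No marker was at 0 in every library. What part these cell types have in the cadherin differences was not tested.

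Mesenchymal cadherins did not pass the test. Cdh11 (ENSMUSG00000031673), or cadherin-11, a type II cadherin of mesenchyme and stroma, was the most abundant non-clustered member per length of exon in GENCODE M21, with 57.4 CPM per kilobase averaged over the libraries, against 18.4 for Pcdh18, the next. It had 443 to 645 CPM in positive libraries (median 563) and 364 to 561 CPM in negative libraries (median 491), higher in 8 of 9 cultures. The log2 fold change was 0.16 (95% interval -0.05 to 0.36, adjusted p = 0.239). With litter as a block it passed, at an adjusted p of 0.0224, and with culture as a block at 0.0478. Cdh2, or N-cadherin, found in mesenchyme and in proximal tubule, had 33.8 to 55.6 CPM in positive and 33.7 to 71.3 CPM in negative libraries (medians 46.3 and 52.7). Its log2 fold change of -0.23 (-0.42 to -0.03) missed the threshold at an adjusted p of 0.0662 and passed with either block, at 0.00208 by litter and 0.00347 by culture. It also passed without litter 3 (adjusted p = 0.00512) and without the negative library of that litter under Mylk-shRNA (0.0105), Rock1/2-shRNA (0.0471) or scramble-shRNA (0.0395). The 10 interstitial stroma markers all rose, with sums of 4780 to 8079 CPM in positive and 3136 to 3859 CPM in negative libraries, a median log2 fold change of 1.07. Their part in the values of Cdh11, Cdh2 and the members that rose was not tested.

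Pcdh9 differed most among the non-clustered members. Pcdh9 (ENSMUSG00000055421), a delta protocadherin studied mostly in brain, had 13.9 to 19.5 CPM in positive libraries (median 16.2), against 2.44 to 7.198 CPM in negative libraries (median 3.76). No positive library came down to the highest negative one. It was 4.00-fold higher in positive cells, a log2 fold change of 2.00 ± 0.17 (SE, adjusted p = 3.00e-08). Cdh24 (ENSMUSG00000059674), a type II cadherin that can bind catenins, had 2.37 to 5.07 CPM in positive libraries (median 3.52), against 0.822 to 1.77 CPM in negative libraries (median 1.41). Here too the ranges were apart, and the log2 fold change was 1.36 ± 0.21 (SE, adjusted p = 6.13e-05). It rests on few reads, 294 counts over all 18 libraries. Pcdh18 (ENSMUSG00000037892), a delta protocadherin expressed in embryonic mesenchyme, rose least. It had 86.7 to 137 CPM in positive libraries (median 112) and 77.8 to 98.9 CPM in negative libraries (median 85.5), higher in 8 of 9 cultures, with a log2 fold change of 0.26 ± 0.07 (SE, adjusted p = 0.0118). Pcdh18 lost the call without litter 1 (0.146), without litter 2 (0.235) and with no filter on low counts (0.0646).

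Markers of other cell types also differed between the fractions. All 8 macrophage markers rose, with sums of 164 to 368 CPM in positive and 5.26 to 12.4 CPM in negative libraries. Of 8 smooth muscle and pericyte markers 6 rose and 1 fell, with sums of 362 to 1009 CPM in positive and 182 to 283 CPM in negative libraries. All 4 erythroid markers tested rose, with sums of 201 to 1788 CPM in positive and 72.1 to 346 CPM in negative libraries, and 1 of 4 neural and Schwann cell markers rose while 2 fell, with sums of 22.04 to 30.2 CPM and 24.4 to 40.1 CPM. Their part in the levels of Pcdh9, Cdh24 and Pcdh18 was not tested.

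Pcdh12 (ENSMUSG00000024440), a protocadherin of endothelial cells, was lower in positive cells. It had 0.979 to 2.28 CPM in positive libraries (median 1.97), against 2.47 to 5.09 CPM in negative libraries (median 3.71). The ranges did not overlap, and the log2 fold change was -1.03 ± 0.20 (SE, adjusted p = 0.000493). Cdh5, the endothelial VE-cadherin, which is outside the set, fell by 0.59 on the log2 scale (SE 0.13, adjusted p = 0.00228) and is named here for its cell type, after its value was seen. Of 9 endothelial markers 5 fell, 2 rose and 2 did not pass, with sums of 110 to 178 CPM in positive and 145 to 229 CPM in negative libraries, which overlap; their part in the Pcdh12 difference was not tested.

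The other 11 non-clustered members that passed the filter did not pass the test. Pcdh17, a delta protocadherin, had 3.10 to 8.24 CPM in positive and 5.14 to 17.5 CPM in negative libraries, with a log2 fold change of -0.59 (-1.11 to -0.07, adjusted p = 0.0735). It passed with litter as a block (0.00598), with culture as a block (0.00343), with no filter (0.00175) and without the litter 2 negative library of Mylk-shRNA (0.0244) or the litter 1 negative library of Rock1/2-shRNA (0.0400). Cdh22, a type II cadherin, had 0.828 to 2.54 CPM in positive and 1.324 to 3.08 CPM in negative libraries, with a log2 fold change of -0.52 (-0.99 to -0.04, adjusted p = 0.0876), and passed with litter as a block (0.0356), without the litter 3 positive library of Mylk-shRNA (0.0435) and without the litter 1 negative library of scramble-shRNA (0.0371). With litter as a block 13 of 22 non-clustered members therefore passed, and with culture as a block 12. The share of all genes that passed with either block is not given here. These 2 counts therefore cannot be set against the share of all genes above, which is from the fit without a block.

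The remaining 9 had the following log2 fold changes and 95% intervals. The interval for Pcdh19, a delta protocadherin, was -0.21 to 0.25 around 0.02, and those for the delta protocadherins Pcdh7 and Pcdh1 were -0.20 to 0.34 around 0.07 and -0.20 to 0.32 around 0.06. Cdh13, the T-cadherin that is held in the membrane by a lipid anchor, stood at 0.13 (-0.34 to 0.59), and Cdh15, the M-cadherin of muscle, at 0.02 (-0.53 to 0.58). Pcdh11x stood at -0.26 (-0.69 to 0.17), and Pcdh10 at -0.44 (-1.01 to 0.13), Pcdh15, a tip-link protein of hair cells, at 0.16 (-0.78 to 1.09) and Cdh10 at 0.10 (-0.93 to 1.12). None of these 9 is shown to be equal in the fractions.

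The 12 non-clustered members that were filtered out were Pcdh8, Pcdh20, Cdh7, Cdh8, Cdh9, Cdh12, Cdh17, Cdh18, Cdh19, Cdh20, Cdh23 and Cdh26. Their highest value in any library ran from 0.310 CPM for Cdh26 to 2.102 CPM for Cdh12. Cdh18 and Cdh19 had no count in 13 of 18 libraries. They were left out of the tests by the filter and are not compared here.

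**Figure D2:**
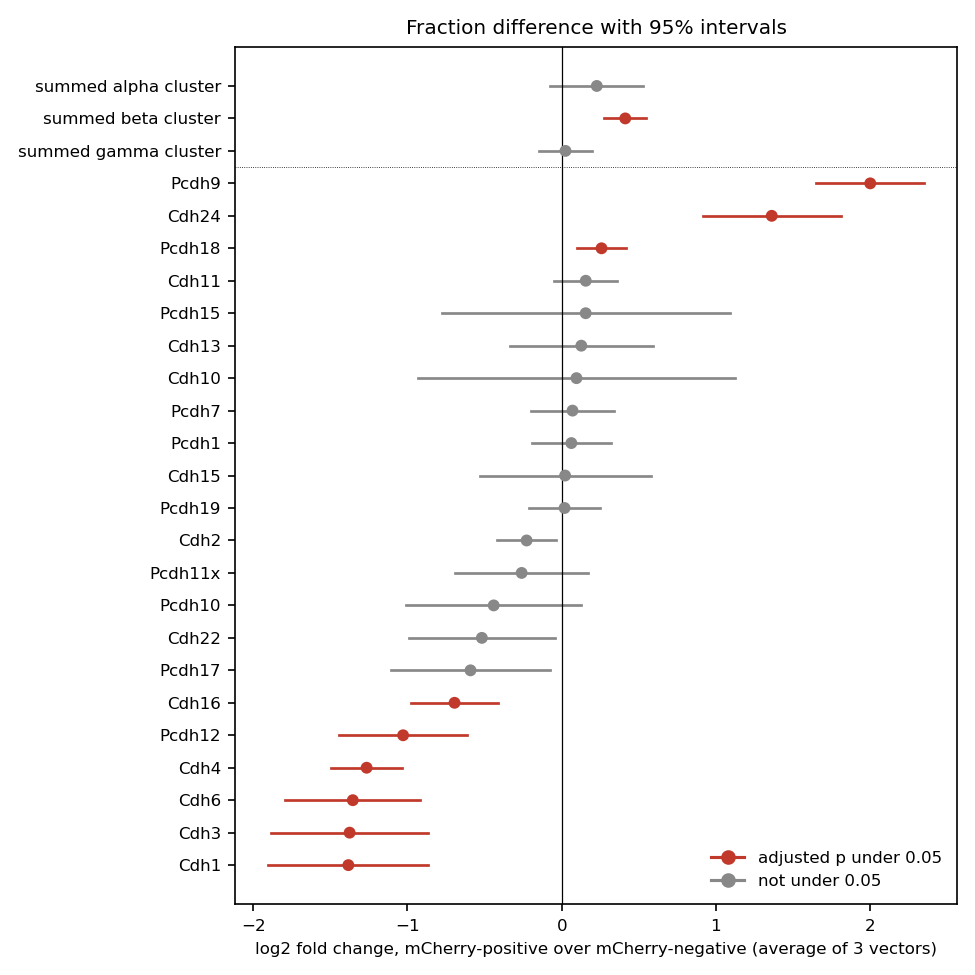
Log2 fold change between mCherry-positive and mCherry-negative cells, averaged over 3 vectors, for the 22 non-clustered members tested and the summed counts of each protocadherin cluster; bars are 95% intervals, red where the adjusted p is under 0.05. Pcdh9 stands at 2.00 and Cdh24 at 1.36, while Cdh6, Cdh3, Cdh1 and Cdh4 lie between -1.26 and -1.38; Pcdh17, Cdh22 and Cdh2 have intervals that miss 0 but adjusted p-values above the threshold.

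The clustered protocadherins, all 59 on chromosome 18 in GENCODE M21, were read by cluster, because the alpha and gamma genes share counts. In every library 14 of the alpha genes (all but Pcdha4b) held the same base amount, and this amount times 14 was whole within 0.15 counts in 18 of 18 libraries. Over all libraries 5.34% of their 533 counts lay above the shared amount, between 0% and 38.1% of a library's alpha counts. The 22 gamma genes had 50519 counts in all libraries together, of which 2.42% lay above the amount common to all 22, between 1.64% and 7.97% of a library's gamma counts. The gamma amount times 22 was whole within the same tolerance in 5 of 18 libraries, so an equal split is not shown for the gamma genes. How the authors' counting gave reads of the constant exons to each gene is not stated in the sources used here. Most of the count of a single gamma gene is therefore the amount common to its cluster, and single alpha genes, at the lowest counts, are not described.

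The beta genes have no shared exons, although some of their counts were fractions too, most often in Pcdhb21 (12 libraries) and Pcdhb22 (9 libraries). Of the 18 tested 8 rose while none fell, with a median log2 fold change of 0.42, against 17.6% of all genes that rose. All 18 had a positive log2 fold change, as did 7688 of the 16544 genes tested. Pcdhb17 had 12.4 to 17.2 CPM in positive libraries (median 13.04), against 8.26 to 11.5 CPM in negative libraries (median 10.5), with ranges apart and a log2 fold change of 0.42 ± 0.09 (SE, adjusted p = 0.00145). Pcdhb20 had 4.81 to 8.58 CPM in positive libraries (median 5.15), against 3.18 to 4.52 CPM in negative libraries (median 3.70), also apart, with a log2 fold change of 0.60 ± 0.14 (SE, adjusted p = 0.00272). Those were the only beta genes tested whose ranges did not overlap. The share of all genes with ranges apart is not given here, so this count has no background. Pcdhb22 had 8.34 to 13.3 CPM in positive and 6.40 to 8.43 CPM in negative libraries and a log2 fold change of 0.35. The others that rose were Pcdhb6 (0.73), Pcdhb9 (0.66), Pcdhb3 (0.64), Pcdhb14 (0.52) and Pcdhb7 (0.48, all log2 fold changes). Of the 10 that did not pass, Pcdhb16, with Pcdhb17 and Pcdhb22 one of the 3 beta genes of highest mean CPM, stood at 0.26 (-0.03 to 0.55) and Pcdhb4 at 0.06 (-0.42 to 0.54). The number of clustered genes that passed was 4 without litter 1, 0 without litter 2 and 5 without the litter 2 positive library of Rock1/2-shRNA. Pcdhb2, Pcdhb12, Pcdhb13 and Pcdhb1 were filtered out, and Pcdhb1 had 1 count in all.

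Summed over the cluster, the beta genes reached 74.7 to 110 CPM in positive libraries (median 92.6), against 59.8 to 74.0 CPM in negative libraries (median 67.5). The sum was higher in the positive library of all 9 cultures, with no overlap, and the log2 fold change was 0.41 ± 0.06 (SE, adjusted p = 5.96e-05), or 1.33-fold. The summed gamma genes had 307 to 445 CPM in positive libraries (median 391), against 301 to 445 CPM in negative libraries (median 374). Those ranges nearly coincide, and the log2 fold change was 0.02 (-0.15 to 0.20, adjusted p = 0.855). DESeq2 gave the gamma sum an adjusted p of 0.880. None of the 22 gamma genes passed, and their log2 fold changes ran from -0.0014 to 0.04. An unadjusted p under 0.05 was reached by 0 of them and by 6947 of all 16544 genes. Only 2.42% of gamma counts lay above the common amount, so these 22 tests largely repeat that of the sum and add little to it. The summed alpha genes had 3.70 to 5.18 CPM in positive libraries (median 4.70) and 2.34 to 4.72 CPM in negative libraries (median 3.77), with a log2 fold change of 0.23 (-0.07 to 0.53, adjusted p = 0.245).

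**Figure D3:**
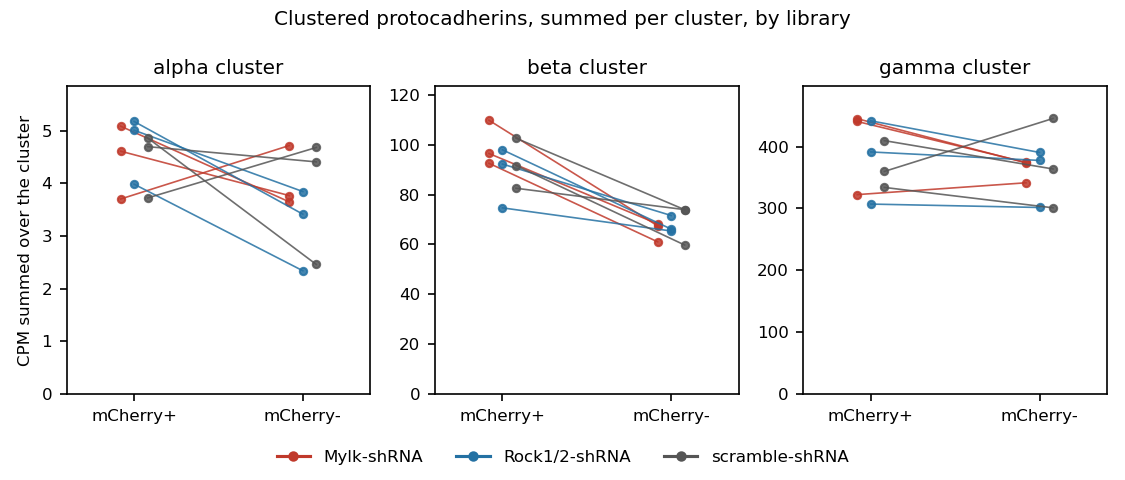
CPM summed over the alpha, beta and gamma protocadherin clusters, with a line for each culture from its mCherry-positive to its mCherry-negative library, coloured by vector, and linear axes from 0. The beta sums are 74.7 to 110 CPM in positive libraries, all above the highest negative library at 74.0 CPM, and the gamma sums overlap over nearly their whole range.

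Counts above the shared amount differed between the gamma genes. Some of these counts were fractions, so they can include reads split among part of the cluster. They are not shown to be reads of a single gene. Pcdhgc4, a C-type gamma gene, held 257 of these counts (21.03%, not corrected for length), followed by Pcdhga12 with 119.5, Pcdhgc5 with 116.5, Pcdhga4 with 96.5 and Pcdhgb4 with 86.9. At the other end Pcdhgb8 had 4.34. Such counts were 6.41 to 13.3 CPM in positive libraries (median 9.05) and 6.55 to 27.2 CPM in negative libraries (median 7.86), with a log2 fold change of -0.25 (adjusted p = 0.589) in a fit added after the data were seen. The medians go the other way from this fold change, and the highest negative library, at 27.2 CPM, weighs on it. A fit of these counts without that library is not given here. All 3 C-type genes, Pcdhgc3, Pcdhgc4 and Pcdhgc5, had such counts in 18 of 18 libraries.

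**Figure D4:**
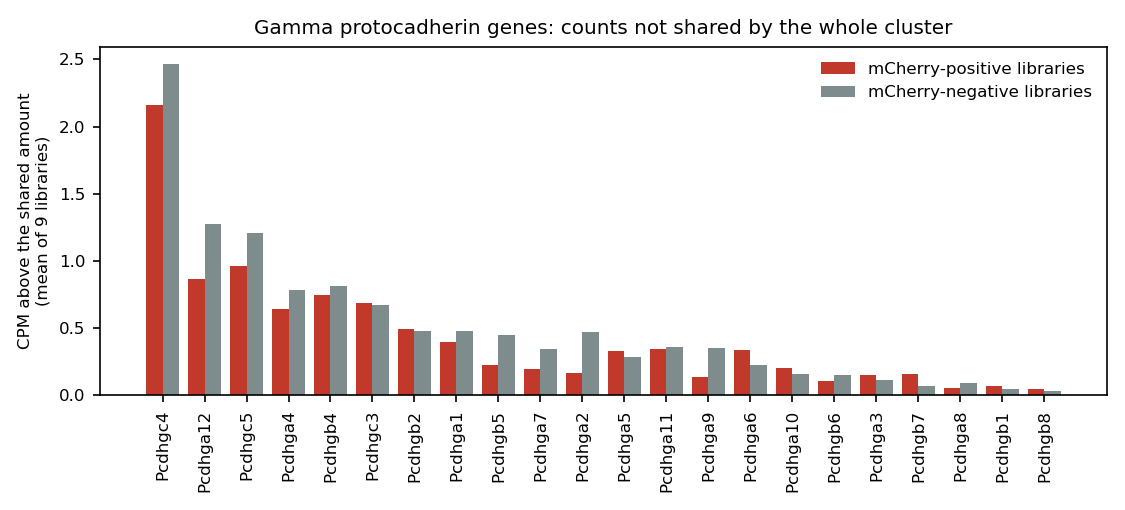
Mean CPM above the amount shared by all 22 gamma protocadherin genes, for each gene in the 9 mCherry-positive and the 9 mCherry-negative libraries; bars are means with no error and start at 0. Pcdhgc4 has the tallest bars in both fractions, at 2.16 CPM in positive and 2.47 CPM in negative libraries. The negative means include a library with 27.2 CPM over all 22 genes, against a median of 7.86 CPM.

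Of 14 catenins and partners of the cadherin tail tested 6 fell, 1 rose and 7 did not pass, with a median log2 fold change of -0.15. Of all genes 16% fell and 17.6% rose (33.6% in all), with a median of -0.03, and the counts of this and the following lists stand beside that background. Ctnnal1, a relative of alpha-catenin, fell by 1.05, Plekha7, which ties p120-catenin to microtubules, by 1.39 and Ctnnd2, the delta-catenin, by 1.18 on the log2 scale, while Vcl, vinculin, rose by 0.52. The core catenins, named for their role after their values were seen, had intervals about 0: Ctnna1 at -0.07 (-0.23 to 0.09), Ctnnb1 at 0.07 (-0.09 to 0.22) and Ctnnd1 at 0.06 (-0.13 to 0.25). Of 7 nectin and desmosomal genes 5 fell and none rose (median -0.61), led by the desmosomal Dsp at -1.73, Dsg2 at -1.93 and Pkp2 at -1.26, with Nectin3 at -0.20. Of 15 other cadherin superfamily genes 7 fell and 1 rose (median -0.23). Celsr2 and Celsr1, the planar polarity cadherins, stood at -1.10 and -1.15, Ret, the GDNF receptor of the ureteric bud, at -1.48 and Fat4, a giant cadherin of the stroma, at 0.70.

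Among 10 genes listed as regulators of cadherin transcription 4 rose, 4 fell and 2 did not pass (median 0.09). Twist2 and Twist1, mesenchymal repressors of E-cadherin, rose by 1.92 and 0.52 on the log2 scale, Snai1, another such repressor, rose by 0.47, and Zeb2 was the other that rose. Ovol1, an epithelial transcription factor, fell by 2.07, and Grhl2 also fell. So did Esrp1 and Esrp2, which are on this list but regulate RNA splicing in epithelium rather than transcription. Of 14 genes with a part in promoter choice at the protocadherin clusters 1 rose, 3 fell and 10 did not pass (median -0.07): the cohesin regulator Pds5b stood at 0.31, the cohesin release factor Wapl at -0.23, the cohesin subunit Smc3 at -0.23 and the methyltransferase Dnmt3b at -0.27. Of 8 shedding and processing genes Mmp14, a membrane metalloproteinase, rose by 1.06, Timp3, an inhibitor of such enzymes, fell by 0.26 and 6 did not pass (median -0.01). Of 9 WAVE complex genes Wasf3 fell by 0.46 and 8 did not pass (median 0.01). The calls in the promoter choice, shedding and WAVE lists are near or under the share of all genes that passed. Ret is also on the ureteric bud list.

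Within each vector, where 3 libraries stand against 3, fewer members passed. Under Mylk-shRNA 2 of 22 non-clustered members rose (Pcdh9 and Cdh24) and 3 fell (Cdh4, Cdh6 and Cdh3), against 8.07% of all genes higher and 5.14% lower (13.2% in all). Under Rock1/2-shRNA 1 rose (Pcdh9) and 5 fell (Cdh4, Pcdh12, Cdh1, Cdh3 and Cdh6), against 6.94% higher and 4.3% lower (11.2% in all). With scramble-shRNA 2 rose (Pcdh9 and Cdh24) and 5 fell (Cdh16, Cdh6, Cdh3, Cdh4 and Cdh1), against 7.43% higher and 4.85% lower (12.3% in all). Of the 18 beta genes, 3 rose under Mylk-shRNA (Pcdhb9, Pcdhb20 and Pcdhb22), and none passed under the other vectors, where 3 each had an unadjusted p under 0.05 and DESeq2 called 0. Pcdh9, Cdh4, Cdh6 and Cdh3 passed with each vector. With litter as a block the non-clustered calls were 10 under Mylk-shRNA, 8 under Rock1/2-shRNA and 9 with the scramble, and the clustered calls 6, 1 and 2. With culture as a block the clustered calls were 6, 2 and 1. Shares of all genes with a block are not given here, so the blocked counts cannot be set against the shares above.

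Pcdh9 had 15.3, 17.5 and 19.5 CPM in positive Mylk-shRNA libraries, against 3.15, 3.97 and 6.42 CPM in negative ones, a log2 fold change of 1.96. Under Rock1/2-shRNA it had 15.1, 15.9 and 17.4 CPM in positive and 2.44, 2.54 and 4.70 CPM in negative libraries (2.31), and with the scramble 13.9, 16.2 and 16.2 CPM in positive and 3.53, 3.76 and 7.198 CPM in negative libraries (1.74). The separation between fractions held in each vector. Cdh4 had 20.3, 23.7 and 36.8 CPM in positive and 47.5, 61.5 and 67.1 CPM in negative Mylk-shRNA libraries, a log2 fold change of -1.23, and with the scramble 29.8, 30.9 and 38.8 CPM in positive and 57.8, 88.5 and 89.4 CPM in negative libraries, one of -1.316. The summed beta cluster had log2 fold changes of 0.53 ± 0.11 under Mylk-shRNA (SE, adjusted p = 0.00298), 0.34 ± 0.11 under Rock1/2-shRNA (adjusted p = 0.0616) and 0.37 ± 0.11 with the scramble (adjusted p = 0.0366). Whether these differ was tested as an interaction, and no member or other gene passed: 0% of 16544 genes, with 217 at an unadjusted p under 0.05 for Mylk-shRNA and 145 for Rock1/2-shRNA, none of them a member, and 0 members called by DESeq2. The difference in fraction effect from the scramble was 0.17 (-0.16 to 0.50) for the beta sum and 0.22 (-0.63 to 1.07) for Pcdh9 under Mylk-shRNA, and -0.03 (-0.36 to 0.30) and 0.57 (-0.29 to 1.44) under Rock1/2-shRNA.

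Between the vectors, within a fraction, no cadherin or protocadherin passed. Of 16544 genes 0% passed for Mylk-shRNA or Rock1/2-shRNA against the scramble, and for Mylk-shRNA against Rock1/2-shRNA, in either fraction, and DESeq2 called 0 members in each of these 6 comparisons. In positive cells, unadjusted p-values under 0.05 were reached by 258 genes for Mylk-shRNA against the scramble, among them the beta genes Pcdhb22 at a log2 fold change of 0.36 and Pcdhb18 at -0.69, and by 145 genes for Rock1/2-shRNA against the scramble, with no member. In negative cells they were reached by 285 genes for Mylk-shRNA, among them Pcdh11x (0.76), Cdh2 (-0.37), Cdh4 (-0.42) and Cdh22 (-0.78), and by 200 genes for Rock1/2-shRNA, with no member. For Mylk-shRNA over Rock1/2-shRNA there were 199 genes in positive cells, with Pcdh7 (0.62), Pcdh19 (0.46) and Pcdhb22 (0.36), and 121 in negative cells, with Pcdh11x (0.82). Each of these totals is below a share of 0.05 of the 16544 genes, the share expected if nothing differed, so the members named are not shown to differ. All comparisons with the scramble share its libraries.

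Values by library show how far these groups overlap. Pcdh11x had 2.65, 3.57 and 6.64 CPM in negative Mylk-shRNA libraries, against 2.11, 2.57 and 2.63 CPM in negative scramble libraries, just apart. Cdh2 had 33.7, 50.5 and 52.7 CPM in negative Mylk-shRNA libraries, against 48.2, 58.5 and 71.3 CPM in negative scramble libraries, which overlap. Against the scramble Cdh11 stood at 0.12 (-0.24 to 0.47) under Mylk-shRNA and 0.08 (-0.28 to 0.43) under Rock1/2-shRNA in positive cells, and at -0.14 (-0.50 to 0.21) and -0.11 (-0.47 to 0.24) in negative cells. In positive cells the beta sum stood at 0.09 (-0.15 to 0.32) under Mylk-shRNA. A p above the threshold does not show that the vectors act alike.

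**Figure D5:**
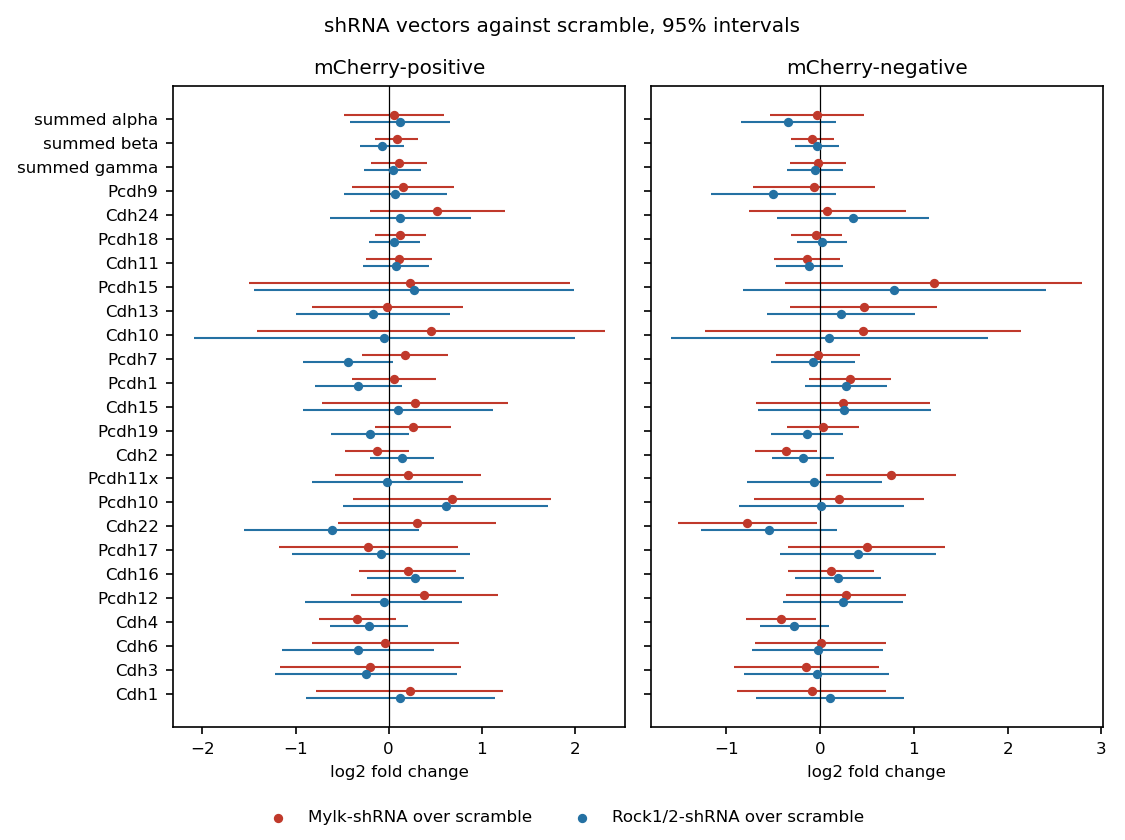
Log2 fold changes of Mylk-shRNA (red) and Rock1/2-shRNA (blue) over scramble-shRNA in mCherry-positive and mCherry-negative cells, for 22 non-clustered members and 3 cluster sums, with 95% intervals. No adjusted p is under 0.05, and the intervals are narrow for Cdh11, Pcdh18 and the beta sum and wide for Pcdh15 and Cdh10.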

How the data were processed

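Bulk poly(A) RNA libraries were made by tagmentation from sorted cells, per the labels' protocols, and a replicate number marks a litter. The authors deposited estimated counts and CPM for 78409 rows, 92 of them spike-ins, which were left out. CPM as deposited equals the count over the library total times 1e6. Of nonzero counts 22.1 to 27.4% per library were fractions. Per the submitters' processing notes, tools included fastp 0.24.0, STAR 2.7.11, Subread 2.1.1 with featureCounts and the build GRCm39; whether strand was used, and the settings, are not stated there. Counting error limits genes near 1 CPM, since library totals start at 3121624.

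Counts were rounded, filtered with edgeR 4.0.16 filterByExpr on 6 groups (minimum count 10, minimum total 15), scaled by TMM and tested with the robust quasi-likelihood test in R 4.3.3, 1 mean per group over 18 libraries (12 residual degrees of freedom, coefficient of biological variation 0.165), for 12 comparisons. Benjamini-Hochberg adjustment ran over 16544 genes, with a threshold of 0.05. Cluster sums were fitted in place of their genes. The test was tried on simulated counts. DESeq2 was version 1.42.0. All non-clustered members that passed the filter and all beta genes called in the average over vectors are named. Some other beta genes and most gamma genes that passed the filter are not. Up to 4 called genes per list are named, by smallest p. For the regulators of cadherin transcription all called genes are named. The members and lists were chosen with earlier results of these data known, and 2 genes first on these lists are not reported here.

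Libraries of the same litter deviated together from their group means (45 pairs, r = 0.237 to 0.639) and those of different litters less (90 pairs, r = -0.544 to 0.310). Deviations cancel over the 3 litters of a group, so the pairs of different litters are not an independent comparison. The labels tie both fractions of a vector and litter to 1 pooled culture. Blocks for litter or culture, DESeq2, its size factors, no filter, unrounded counts, fits to the 2 or 4 groups compared, and fits without each library or litter were tried. Promoter sequences are RefSeq's for GRCm38.p6, and exon lengths are GENCODE M21's; neither gives coordinates for the counts.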

Additional observations from a re-analysis of the deposited data

How the results depend on the processing

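The main fit had no block, so its p-values treat the 18 libraries as independent, although these came from 3 litters and 9 cultures. Its error for the fraction difference includes spread between litters that a comparison within cultures would remove. Members near 1 CPM are limited by depth. Averaged over vectors, the 9 non-clustered calls stayed within 1.5 times under every setting tried, from 8 to 13, and the summed beta cluster kept its call in all of them; the 8 clustered calls became 4 with no filter, 1 with clusters summed, and 0 to 9 when a library or litter was left out (0 without litter 2). The summed gamma cluster, not called, ran from -0.032 to 0.065 when a library or litter was left out. The counts above the shared amount, 2.42% of the gamma counts and so another quantity than the sum, stood at -0.25 and were not called. For the counts above the shared amount the medians went the other way, at 9.05 CPM in positive and 7.86 CPM in negative libraries. Shares of all genes that passed under these settings are not given here, so a change in calls cannot be read as particular to the members. Blocks by litter or culture, which the labels support, changed calls as follows. Under Mylk-shRNA, 5 non-clustered calls became 10 with the replicate block by litter and 10 by culture, and 3 clustered calls became 6 and 6; under Rock1/2-shRNA, 0 clustered calls became 1 and 2, and with the scramble, 2 and 1. With no filter, non-clustered calls were 3 under Rock1/2-shRNA and 3 with the scramble, against 6 and 7, and clustered calls under Mylk-shRNA were 0, also 0 with only the compared groups and 1 with clusters summed; the scramble had 1 with clusters summed. Leaving out a library or litter gave 1 to 8 non-clustered and 0 to 3 clustered calls under Mylk-shRNA, 2 to 6 and 0 to 1 under Rock1/2-shRNA, and 1 to 8 non-clustered calls with the scramble. Under Mylk-shRNA, 3 non-clustered calls were left without the litter 1 or 2 negative library or the litter 1 or 3 positive library, and no clustered call without the litter 1 negative or litter 2 positive library. Under Rock1/2-shRNA, 2 were left without the litter 2 negative or litter 3 positive library and 3 without the litter 1 positive library; 1 clustered call appeared without the litter 3 positive library or the litter 2 negative library of Mylk-shRNA. With the scramble, 3 were left without the litter 1 negative library, 2 without the litter 2 negative, litter 1 positive or litter 3 positive library, and 4 without the litter 2 positive library. The cause was not tested. Uncalled members also reversed: Cdh15 to -0.0099 by culture and -0.0049 by litter, and, with a library or litter left out, Cdh10 ran from -0.151 to 0.353, Cdh13 from -0.285 to 0.370, Cdh15 from -0.137 to 0.162, Pcdh1 from -0.104 to 0.192, Pcdh15 from -0.017 to 0.389 and Pcdh19 from -0.090 to 0.076. The 0 calls between vectors and in the interactions held under every setting tried.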
